A study of Mus musculus with 4 samples.

Results

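The transcripts described here encode the tubulin isotypes of the axon, the alpha tubulins Tuba1a and Tuba1b and the beta tubulins Tubb2a, Tubb2b, Tubb3, Tubb5 and Tubb6. They were listed by identifier, 1 transcript for each of 7 genes among 116912 transcripts listed. The rule uses no measured change, but the members were chosen with earlier results of these data known. The identifiers are ENSMUST00000097014 (Tuba1a), ENSMUST00000077577 (Tuba1b), ENSMUST00000056427 (Tubb2a), ENSMUST00000075774 (Tubb2b), ENSMUST00000071134 (Tubb3), ENSMUST00000001566 (Tubb5) and ENSMUST00000001513 (Tubb6). A mean of 20 or more reads over the 4 libraries was required. Of the 7, 6 met this minimum, as did 3090 transcripts of the whole series. Tubb6 had a mean of 10.4 reads, was left out of every count over the 6, and is described separately.

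Microtubules are polymers of heterodimers of alpha and beta tubulin, and in an axon they are both the track for transport and the material of growth. Mammals make each subunit from several genes whose products differ mainly in the C-terminal tail, where most modifications sit. Sensory neurons of the dorsal root ganglion regrow a cut or crushed peripheral axon, which takes new tubulin. Tubb3 is widely used as a marker of neurons, Tuba1a and Tubb2b are abundant in the developing nervous system, Tubb2a is also a brain isotype, and Tuba1b and Tubb5 are made in most cell types.

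RNA came from dorsal root ganglia of adult mice, uninjured or 72 hours after the sciatic nerve was injured with forceps, with 1 sample in each of 4 groups. Bulk RNA was the RNA of whole ganglia of wild-type CD-1 mice, read with a nanopore direct RNA kit. RiboTag RNA was precipitated with an antibody to the HA tag and read with a nanopore cDNA-PCR kit. Its mice, a cross of the Rpl22 RiboTag strain with an Advillin-Cre strain and of genotype RPL22HA+/+;Advillin-Cre+, carry HA on a ribosomal protein in cells where the Advillin driver, active in sensory neurons, has switched it on. Bulk and RiboTag RNA thus differ in kit, strain, genotype and precipitation at once, and the parts these play cannot be told apart. How many animals gave each sample is not given in the sources used here. No table used here pairs the transcripts with genes, so cell type markers and the other genes of the microtubule pathway were not analysed here.

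The bulk libraries held 592935 reads (uninjured) and 529332 reads (injured), and the RiboTag libraries 207597 and 79334, each the mean of 3 deposited columns. These columns stand for 1 sample, and no p-value between groups could be given. Overlap of columns and counts of column pairs below describe the columns of 1 sample per group. They are not replicate support for a difference between groups. Every interval below is a 95% interval for counting error only and says nothing of the spread between animals. Copies of 1 molecule made by PCR and errors in assigning reads to transcripts are not covered by it either. Levels are given in TPM, which in these files is the read count scaled to a common total with no transcript length in it. TPM levels are therefore compared between libraries for 1 transcript and not between genes. Places in the order of abundance and shares below do set transcripts side by side, by reads and without length. Nanopore reads carried no molecular identifiers. A chi-square test of the columns at 0.001 found a difference for 0 of 6 tubulin transcripts in each of the 4 libraries. With few reads this test can miss a difference, and the lowest value was p = 0.0022 (chi-square test) for Tuba1a in injured RiboTag RNA, with columns of 25.2, 15.5 and 41.2 reads. Among all transcripts with 20 or more reads the same test found 15.9% and 15.4% in the bulk and 6.78% and 7.01% in the RiboTag libraries, uninjured first.

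The alpha tubulins parted between the assays. Tuba1a, the main alpha tubulin of growing neurons, had columns of 6510, 6840 and 6835 TPM in uninjured bulk and 7182, 7302 and 7356 TPM in injured bulk RNA. In RiboTag RNA its columns were 322.2, 267.0 and 257.6 TPM without injury and 318.5, 195.8 and 518.5 TPM after it. The bulk and RiboTag columns were far apart, while the injured RiboTag columns spread over the uninjured ones on both sides. Relative to library totals, Tuba1a was 23.6-fold lower in uninjured RiboTag than in uninjured bulk RNA, a log2 ratio of -4.56 (interval -4.96 to -4.20). After injury it was 20.8-fold lower, with a log2 ratio of -4.38 (-5.02 to -3.88). In the order of abundance of all transcripts it stood at place 7 in uninjured bulk and place 326 in uninjured RiboTag RNA.

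Tuba1b, the alpha tubulin made in most cells, had columns of 2701, 2602 and 2535 TPM in uninjured and 2434, 2600 and 2471 TPM in injured bulk RNA. Its RiboTag columns were 1305, 1360 and 1374 TPM without injury and 1331, 1175 and 1027 TPM after it. All RiboTag columns lay below all bulk columns, but by far less than for Tuba1a. The log2 ratio of RiboTag to bulk RNA was -0.95 (-1.15 to -0.77) without injury and -1.08 (-1.41 to -0.79) after it. The log2 ratio of Tuba1a minus that of Tuba1b was -3.61 without injury (interval -4.02 to -3.20), 12.2-fold on the linear scale, and -3.30 after injury (-3.91 to -2.68). This difference sets 2 transcripts of the same libraries against each other, so the library total does not enter it.

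**Figure D1:**
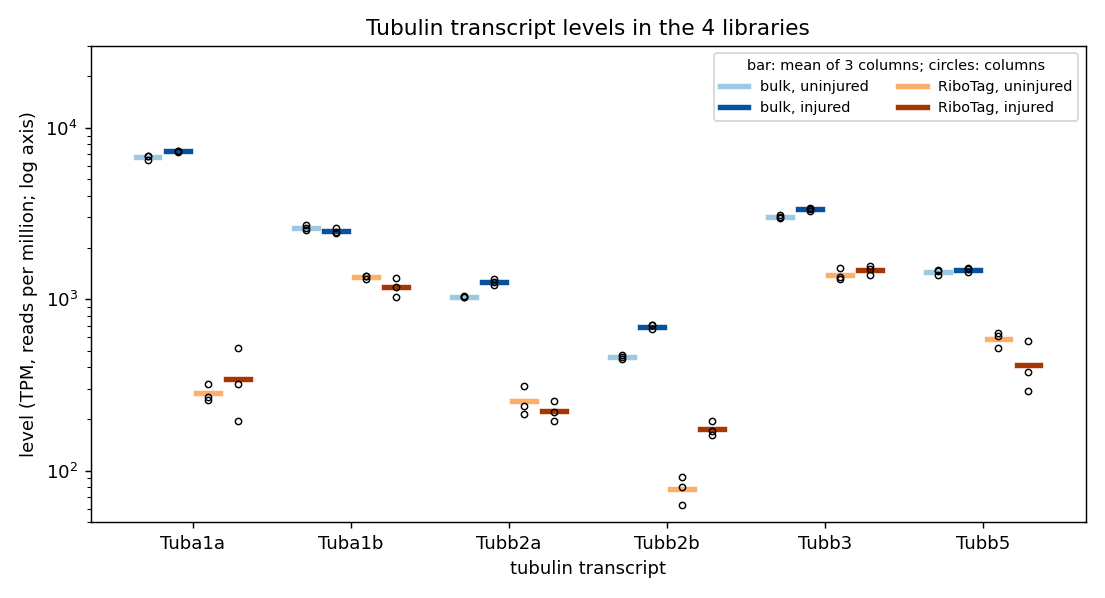
Level of each of the 6 tubulin transcripts (TPM, log axis) in the 4 libraries, with the mean of the 3 columns as a bar and the columns as circles. Tuba1a sits at 6728 and 7280 TPM in bulk RNA and at 282.3 and 344.4 TPM in RiboTag RNA, the widest gap of the 6.

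The coding sequences of Tuba1a and Tuba1b are close copies, and a read that does not reach a differing base can be assigned to either. Their sum does not depend on that split, but reads assigned to other transcripts, of these genes or others, are not in it. The pair held 5539 and 5178 reads in bulk RNA without and with injury, and 338.1 and 120.8 in RiboTag RNA. The RiboTag to bulk log2 ratio of the sum was -2.52 (-2.68 to -2.36) without injury and -2.68 (-2.95 to -2.42) after it. Within the pair, Tuba1a took 72.0% of reads in uninjured bulk (exact Clopper-Pearson interval 70.8% to 73.2%) and 74.4% in injured bulk (73.2% to 75.6%). It took 17.3% in uninjured RiboTag (13.6% to 21.9%) and 22.6% in injured RiboTag RNA (15.2% to 30.8%). The columns gave 70.7% to 74.9% in bulk and 14.3% to 33.5% in RiboTag RNA, so the assays did not overlap. Whether the split of reads between the copies works alike in direct RNA and PCR-amplified reads was not tested.

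The make-up of the tubulin reads differed accordingly between the assays. Of the reads of all 6 transcripts, Tuba1a held 44.0% in uninjured bulk (43.0% to 45.0%) and 44.0% in injured bulk RNA (42.9% to 45.0%), against 7.16% (5.54% to 9.21%) and 9.03% (5.97% to 12.7%) in RiboTag RNA. Tubb3, the neuronal beta tubulin, held 19.8% and 20.1% in bulk RNA without and with injury, against 35.3% (32.1% to 38.7%) and 38.8% (33.2% to 44.5%) in RiboTag RNA. Tuba1b went from 17.1% and 15.1% in bulk to 34.2% and 30.9% in RiboTag RNA. The alpha pair together held 61.1% (60.1% to 62.1%) and 59.1% (58.1% to 60.1%) of tubulin reads in bulk, and 41.3% (37.9% to 44.8%) and 39.9% (34.5% to 45.8%) in RiboTag RNA. These shares are of reads within 1 library and need no scaling between libraries.

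**Figure D2:**
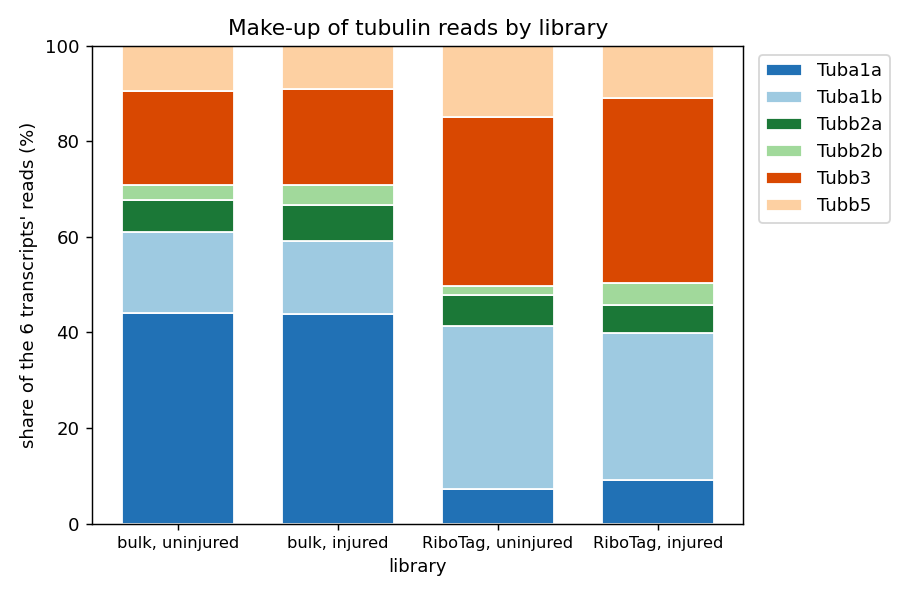
Share of the reads of the 6 tubulin transcripts (%, stacked to 100) held by each transcript in each library. Tuba1a is at 44.0% in both bulk libraries, while Tuba1b goes from 17.1% to 15.1% and Tubb2b from 3.01% to 4.18% there, and the 2 RiboTag bars have Tuba1a at 7.16% and 9.03%.

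The beta tubulins were also lower in RiboTag RNA. Tubb3 had columns of 3029, 3079 and 2957 TPM in uninjured bulk and 3388, 3342 and 3276 TPM in injured bulk RNA, and 1309, 1512 and 1356 TPM in uninjured and 1375, 1564 and 1498 TPM in injured RiboTag RNA. Each assay kept to its own range, and in bulk RNA all injured columns lay above all uninjured ones. The RiboTag to bulk log2 ratio of Tubb3 was -1.12 (-1.30 to -0.94) without injury and -1.17 (-1.46 to -0.91) after it.

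Tubb5, a beta tubulin of most cell types, had columns of 1453, 1471 and 1393 TPM in uninjured and 1499, 1449 and 1520 TPM in injured bulk RNA. Its RiboTag columns were 633.9, 609.3 and 518.6 TPM without injury and 567.7, 378.3 and 289.6 TPM after it. The bulk columns of both states overlapped, and so did the RiboTag columns. The log2 ratio of RiboTag to bulk was -1.29 (-1.58 to -1.02) and -1.83 (-2.39 to -1.34). The difference of Tubb5 from Tubb3 in this ratio had an interval that included 0 without injury (-0.17, interval -0.50 to 0.16) and excluded it after injury (-0.67, interval -1.23 to -0.10). The injury change of Tubb5 minus that of Tubb3 had an interval that included 0 in RiboTag RNA (-0.59, interval -1.22 to 0.05). In bulk RNA it did so too (-0.09, interval -0.26 to 0.08).

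The Tubb2 genes, another pair of close copies, gave lower ratios than Tubb3 without injury. Tubb2a had bulk columns of 1025, 1033 and 1049 TPM without and 1257, 1307 and 1208 TPM with injury, and RiboTag columns of 237.8, 312.3 and 213.1 TPM without and 196.0, 221.1 and 254.7 TPM with injury. Tubb2b had bulk columns of 472.5, 449.2 and 460.1 TPM without and 703.7, 704.5 and 667.8 TPM with injury, and RiboTag columns of 91.25, 80.74 and 63.20 TPM without and 169.9, 195.0 and 160.7 TPM with injury. For Tubb2b the columns of uninjured and injured RNA did not overlap in either assay, and for Tubb2a only in bulk RNA were they apart. The RiboTag to bulk log2 ratio of Tubb2a was -2.01 (-2.45 to -1.61) without and -2.45 (-3.23 to -1.80) with injury. That of Tubb2b was -2.51 (-3.41 to -1.85) without and -1.93 (-2.86 to -1.21) with injury. Against Tubb3 the uninjured ratio gave a difference of -0.90 for Tubb2a (interval -1.34 to -0.46) and of -1.40 for Tubb2b (-2.13 to -0.66). After injury the difference was -1.28 for Tubb2a (-2.01 to -0.56) and -0.77 for Tubb2b (-1.57 to 0.04), where the interval included 0. Of the other transcripts, Tuba1b differed from Tubb3 by 0.16 without injury, with an interval that included 0 (-0.09 to 0.42).

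Read against all transcripts, a lower level in RiboTag RNA was common. A transcript was counted as changed where its ratio was at least 2-fold and its interval did not hold a ratio of 1, among those with 20 or more reads in the 2 libraries together. Without injury 5 of 6 tubulin transcripts were counted as lower, where 44.1% of 6174 transcripts were, and after injury 6 of 6, where 36.0% of 5045 were. Tuba1b was the exception without injury, at 1.94-fold lower. Among transcripts with 200 or more reads, nearer in depth to the tubulins, the shares counted as lower were 63.3% of 583 and 74.7% of 439. The median log2 ratio of the 6 was -1.65 without and -1.88 with injury, beside medians of -0.98 and -1.25 for all transcripts and -1.85 and -2.27 for those with 200 or more reads. The median of the 6 therefore lay near that of the transcripts with 200 or more reads. This minimum is on the summed reads of both libraries, and the bulk libraries are deeper, so it favours transcripts high in bulk RNA. At a minimum of 50 reads the median of all transcripts was -1.22 without and -1.68 with injury. Nearness to the background of 200 or more reads is thus partly set by the filter. Within this background, 11.3% of the transcripts with 200 or more reads had a lower ratio than Tuba1a without injury and 15.5% after it, while 63.8% and 73.3% had a lower ratio than Tuba1b.

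**Figure D3:**
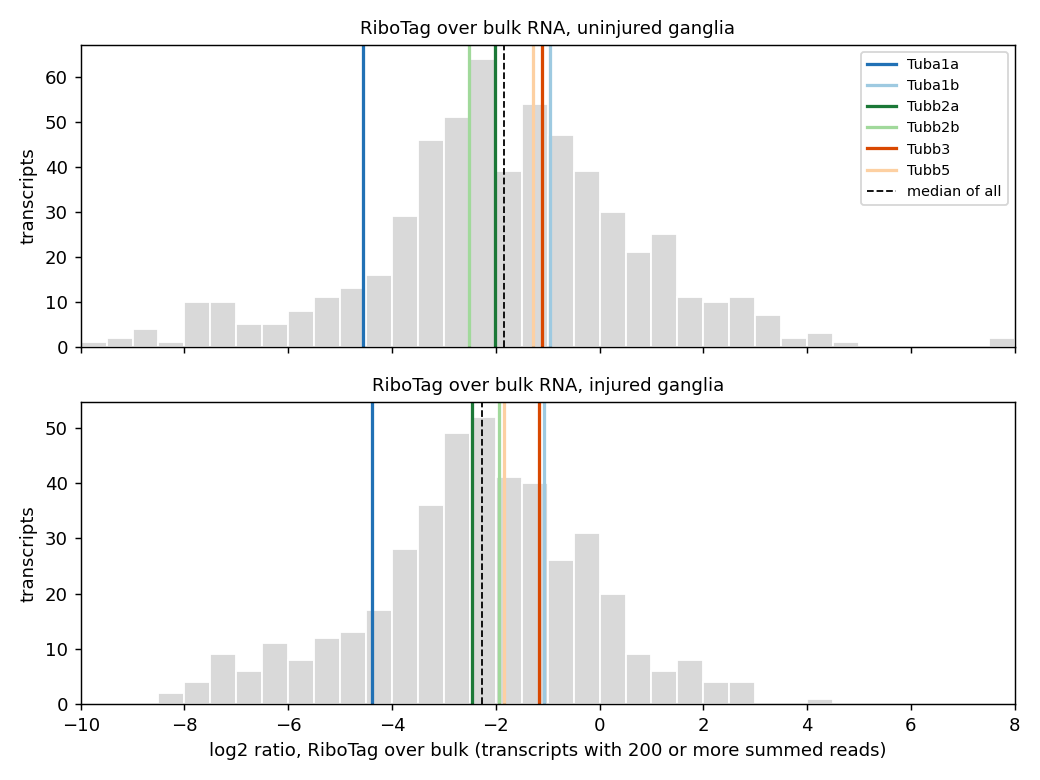
Histograms of the log2 ratio of RiboTag to bulk RNA for transcripts with 200 or more summed reads, for uninjured (top) and injured (bottom) ganglia, with the 6 tubulin transcripts as coloured lines and the median as a dashed line. Tuba1a lies at -4.56 and -4.38, left of the medians of -1.85 and -2.27, and Tubb3 and Tuba1b lie to the right of them.

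A pair of transcripts that took 31.2% of uninjured and 40.9% of injured RiboTag reads sets part of this scale. With that pair left out of the totals the median of all transcripts moved up by 0.54 without and 0.76 with injury, and the split of all calls moved from 894 higher and 2723 lower to 1271 and 1955 without injury, and from 388 and 1814 to 679 and 892 after it. Under these totals Tubb3 (-0.58 without and -0.41 with injury), Tubb5 without injury (-0.75) and Tuba1b after injury (-0.32) were no longer counted as lower. With TMM library sizes the calls of Tubb3 (-0.85 and -0.97) and of Tuba1b after injury (-0.88) also ended. Tuba1a, Tubb2a and Tubb2b were counted as lower under both.

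In whole ganglia no change of the 6 tubulins with injury reached 2-fold. In bulk RNA 0 of 6 transcripts were counted as changed, where 9.76% of 7739 transcripts were. Among 986 transcripts with 200 or more reads, 50 were. With 6 members, a count of 0 does not set the tubulins apart from these shares. The median log2 change of the 6 was 0.13, beside 0.00 for all transcripts. Tubb2b, a beta tubulin of developing neurons, had the widest change, from 273.1 to 366.3 reads, a log2 ratio relative to totals of 0.59 (0.36 to 0.82). Of 986 transcripts with 200 or more reads, 92.7% had a lower ratio. Its partner Tubb2a went from 614.2 to 665.5 reads, a log2 ratio of 0.28 (0.12 to 0.44), and the sum of both had a log2 ratio of 0.38 (0.25 to 0.51).

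The other bulk changes were smaller still. Tubb3 had a log2 ratio of 0.14 (0.05 to 0.24) and Tuba1a of 0.11 (0.05 to 0.18). For each, 9 of 9 pairs of an injured with an uninjured column were above 0, but these columns do not count as replicates. For Tubb5 the log2 ratio was 0.05 (-0.09 to 0.19) and for Tuba1b -0.06 (-0.17 to 0.04), and both intervals included no change. The alpha pair summed gave 0.07 (0.01 to 0.12). The 4 beta tubulins summed gave 0.19 (0.12 to 0.25) and all 6 together 0.11 (0.07 to 0.16), from 1.53% to 1.66% of all bulk reads. In bulk tissue fewer cells of a type and less RNA per cell cannot be told apart. With TMM library sizes the bulk values were lower, at 0.03 for the alpha pair (-0.03 to 0.08), 0.075 for Tuba1a (0.01 to 0.14) and 0.076 for all 6 (0.03 to 0.12), so the interval of the alpha pair then included no change. With 1 sample per group none of these ratios has a check against replicate animals.

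**Figure D4:**
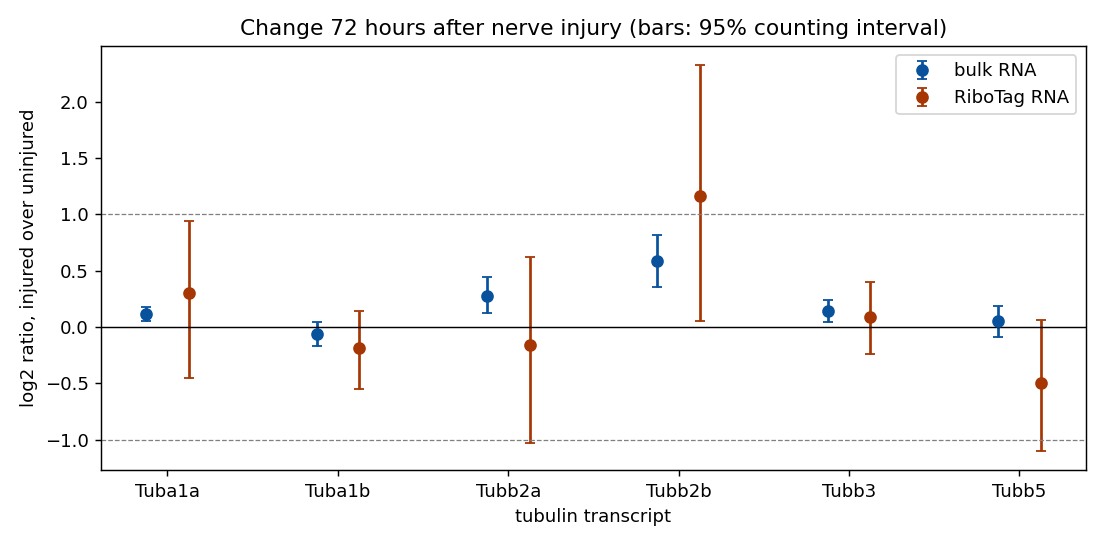
Log2 ratio of injured over uninjured RNA for each tubulin transcript in bulk and RiboTag RNA, with bars for the 95% counting interval and dashed lines at 2-fold. All bulk values lie between -0.06 and 0.59, and the RiboTag intervals are wider because fewer reads stand behind them.

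In RiboTag RNA 1 of 6 transcripts, Tubb2b, was counted as changed and as higher, where 11.0% of 1866 transcripts were changed and 2.95% were higher (55 higher and 150 lower, or 89 and 85 with the dominant pair left out of the totals). Tubb2b had 16.3 reads in the uninjured and 13.9 in the injured library, whose total is 79334 against 207597 reads. Relative to totals this was 2.25-fold higher, a log2 ratio of 1.17 (0.05 to 2.32), with 9 of 9 column pairs above 0. The call rests on these few reads and ended with TMM library sizes (1.06, interval -0.06 to 2.21), without column 2 (1.11, interval -0.09 to 2.24), without column 3 (1.09, interval -0.09 to 2.12) and with a minimum of 50 reads, which Tubb2b does not reach. Summed with its close copy Tubb2a the log2 ratio was 0.27 (-0.37 to 0.90), and the sum was not counted as changed.

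The other 5 RiboTag changes were not counted as changed, and their intervals included no change under the library totals. Tubb3, with 289.0 and 117.3 reads, had a log2 ratio of 0.09 (-0.24 to 0.40). Tuba1a, with 58.6 and 27.3 reads, had 0.30 (-0.45 to 0.94), and its columns gave the direction in 6 of 9 pairs only. Tuba1b had -0.19 (-0.55 to 0.15), Tubb2a -0.16 (-1.03 to 0.62) and Tubb5 -0.50 (-1.10 to 0.07). The interval of Tubb5 excluded no change with TMM (-0.61, interval -1.21 to -0.04) and without column 1 (-0.74, interval -1.46 to -0.16). With summed columns it did too (-0.51, interval -0.85 to -0.19), but summing the columns of 1 sample narrows an interval by construction. The interval included no change with the dominant pair left out of the totals (-0.28, interval -0.88 to 0.29). The median of all RiboTag transcripts was itself at -0.21, and moved up by 0.22 with the dominant pair left out of the totals and down by 0.11 with TMM. With the pair left out Tuba1b (0.03) and Tubb2a (0.06) changed sign, with TMM Tubb3 did (-0.02), and without column 3 Tuba1a did (-0.17), so the direction of these 4 is not settled. Measured from that median, Tubb3 lay at 0.30 and Tubb5 at -0.29. With the pair left out Tubb3 was at 0.31 (-0.02 to 0.62), so the limits of its change depend on the totals as well as on depth.

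The difference between the injury changes of RiboTag and bulk RNA asks whether injury moved the RiboTag to bulk ratio. Of 4905 transcripts 6.24% were counted as changed, and 0 of 6 tubulin transcripts were. Among 1051 transcripts with 200 or more reads, 107 were. With 6 members, a count of 0 does not set the tubulins apart here either. The split of all calls was 129 higher and 177 lower, and 194 and 118 with the dominant pair left out of the totals. The widest values were 0.58 for Tubb2b (-0.46 to 1.62) and -0.55 for Tubb5 (-1.12 to 0.02). For Tubb3 the difference was -0.05 (-0.37 to 0.27) and for all 6 summed -0.16 (-0.36 to 0.03). Under the library totals all 6 single intervals included 0. That of Tubb5 excluded 0 with TMM (-0.62, interval -1.19 to -0.05), without column 1 (-0.79, interval -1.41 to -0.17) and with summed columns (-0.56, interval -0.89 to -0.23). That of all 6 summed excluded 0 with TMM (-0.23, interval -0.43 to -0.04) and with summed columns (-0.16, interval -0.27 to -0.05). Summing the columns of 1 sample narrows such intervals by construction. With the dominant pair left out of the totals the values of Tubb3 (0.17), Tuba1b (0.10) and all 6 summed (0.06) were above 0, and without column 3 that of Tuba1a (-0.29) was below it.

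Tubb6, the remaining beta tubulin, was too rare for the group of 6 but was counted as higher after injury in bulk RNA. Its columns had 10.2, 11.3 and 7.22 reads in uninjured and 28.5, 30.0 and 33.0 reads in injured bulk RNA, and the 2 sets did not overlap. Relative to totals this was 3.44-fold higher after injury, a log2 ratio of 1.78 (0.73 to 2.99). By the same rule 5.21% of the tested transcripts were counted as higher, and 97.6% had a lower ratio than Tubb6. In RiboTag RNA Tubb6 had means of 0.337 and 1.33 reads. Both lie under the 3 reads that a count of 0 allows, 14.5 TPM in the uninjured and 37.8 TPM in the injured library, so no change could be detected there.

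The sequences before the RefSeq start of the alpha pair, which parted most between the assays, of Tubb2a, and of the neuronal Tubb3 are shown as examples. No value here was measured at a promoter. Of the 6 genes 5 are in the RefSeq promoter table of build GRCm38.p6, and Tubb2b is not. Tubb5 is in it but is not shown, although it also carries contrasts described above. Capitals mark TGACGTCA, the palindrome bound by ATF and CREB factors, and TATAA on the gene's strand starting 20 to 40 bases before the start. TGANTCA, the AP-1 element, was searched on both strands and marked too. Each line gives the 100 bases before the start, 5′ to 3′ on the gene's strand.
Tuba1a: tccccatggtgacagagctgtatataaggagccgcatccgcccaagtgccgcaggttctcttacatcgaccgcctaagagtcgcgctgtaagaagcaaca
Tuba1b: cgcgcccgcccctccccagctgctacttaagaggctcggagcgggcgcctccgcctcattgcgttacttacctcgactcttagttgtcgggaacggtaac
Tubb2a: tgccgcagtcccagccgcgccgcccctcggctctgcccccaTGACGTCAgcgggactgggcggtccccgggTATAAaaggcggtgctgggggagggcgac
Tubb3: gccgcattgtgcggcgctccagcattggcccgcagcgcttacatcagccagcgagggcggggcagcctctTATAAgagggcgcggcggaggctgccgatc

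The windows are chr15:98953502-98953601 for Tuba1a, chr15:98934391-98934490 for Tuba1b and chr13:34078009-34078108 for Tubb2a, all on the minus strand, and chr8:123411453-123411552 on the plus strand for Tubb3. Tubb2a holds TGACGTCA starting 59 bases and TATAA starting 29 bases before the start, and Tubb3 holds TATAA starting 30 bases before it. TGACGTCA was in the 250 bases before the start of 1.55% of 32851 promoters, TGANTCA in 6.75%, and TATAA at that distance in 3.52%. In the 250 bases of the 5 tubulin promoters TGANTCA was found in 0. A match describes the letters and is not a measured site.

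Transcripts with a pattern like that of a tubulin were looked for among those with 50 or more reads in every library, by the Euclidean distance of log2 levels centred over the 4 libraries. For Tubb3 the nearest of 62 was ENSMUST00000006235.9, at a distance of 0.079, with 1357 and 1526 TPM in bulk and 590.7 and 645.5 TPM in RiboTag RNA. Next came ENSMUST00000019109.8 at 0.144. For Tuba1a the nearest of 63 was ENSMUST00000071555.13 at a distance of 1.99, and ENSMUST00000019109.8 was again second, at 3.24. Tuba1a itself has 27.3 reads in injured RiboTag RNA, under the minimum of 50. The minimum thus leaves out transcripts with a pattern and depth like its own, and these distances say little of how common that pattern is. The files do not pair these identifiers with gene names. With 4 libraries the distance describes these samples only.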

How the data were processed

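The 4 tables, 1 per sample, held 3 columns of estimated counts and 3 columns of TPM, both deposited by the authors. The submitters' processing notes name minimap2, Salmon and the builds GRCm39 and mm39. What software versions, settings and annotation were used, and how the 3 columns arose, is not given in the sources used here. The deposited TPM equalled the estimated count times a constant per column, to within 0.0499%. Gene symbols of the members came with the rule that lists their identifiers. The members and lists were chosen with earlier results of these data known.

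Columns were averaged and scaled by the library total. Log2 ratios added 0.5 read to each count. Intervals were exact conditional binomial ones from counts rounded to whole numbers. The difference of injury changes had a normal interval from the 4 counts, and needed 20 reads in all and 5 in each assay. The text names every member, and for Tuba1a and Tubb3 the 2 nearest transcripts in pattern. No count test between groups was made, since a group had 1 sample. Python 3.11.15, numpy 2.4.6, pandas 2.3.3, scipy 1.17.1, and edgeR 4.0.16 in R 4.3.3 (TMM factors only) were used. Alternatives were other totals, pseudocounts, read minimums, fold thresholds and columns.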

Additional observations from a re-analysis of the deposited data

Results flagged for a closer look

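For 2 transcripts the injury change had opposite signs in bulk and RiboTag RNA. The log2 change of Tubb2a was 0.28 in bulk and -0.16 in RiboTag RNA (interval -1.03 to 0.62). That of Tubb5 was 0.050 in bulk (-0.09 to 0.19) and -0.50 in RiboTag RNA (-1.10 to 0.07). The difference between RiboTag and bulk RNA was -0.44 for Tubb2a (-1.22 to 0.35) and -0.55 for Tubb5 (-1.12 to 0.02), with intervals for counting error only. It was not tested against replicate samples, since each group had 1. In 3 of these 4 values the interval included no change. With the dominant RiboTag pair left out of the totals the RiboTag value of Tubb2a was 0.06, of the same sign as in bulk RNA, and it was also above 0 with a pseudocount of 5 (0.04) and without column 2 (0.02). The RiboTag value of Tubb5 was below 0 under each alternative that could move it, from -0.74 without column 1 to -0.28 with the pair left out. A read minimum or a fold threshold cannot move a value, and summing the columns hardly did.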

How the results depend on the processing

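Of the counts over the 6 tubulin transcripts, 5 counted as lower in uninjured RiboTag against bulk RNA became 3 with the dominant RiboTag pair left out of the totals. The 1 transcript counted in RiboTag injury became 0 with TMM, with minimums of 50 or 200 reads, without column 2 and without column 3. The 0 counted in bulk injury became 1 (Tubb2b) at a 1.5-fold threshold. At that threshold Tuba1b (-0.95) was also counted as lower in uninjured RiboTag RNA, and without column 3 its injured ratio no longer was. No called value of the 6 changed sign under any of the 11 alternatives run, which left out Tubb6. A read minimum or a fold threshold cannot change a sign. The minimum of 200 reads was chosen after seeing the data.

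Calls over all transcripts depended on the read minimum and on summing columns. Bulk injury (755 calls) gave 1582 with no minimum, 316 at 50 reads, 50 at 200 reads and 2071 summed. RiboTag injury (205) gave 441, 86, 10 and 1046 in the same order, and 117 at a pseudocount of 5. The uninjured ratio (3617) gave 1927 at 50 reads, 446 at 200 and 7110 summed. The injured ratio (2202) gave 353 at 200 reads, 5130 summed and 1157 at a pseudocount of 5. The difference of injury changes (306) gave 107 at 200 reads and 1396 summed. A minimum tests fewer transcripts and a sum narrows intervals by construction. For the remaining shifts the cause was not tested.

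No paired analysis was possible because each group had 1 sample. The sum over all transcripts of a gene was not run, since no table used here maps transcripts to genes. The injured RiboTag library held 13.9 to 117.3 reads per tubulin transcript, which sets the width of the RiboTag intervals.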
